A study of Mus musculus with 6 samples.

Results

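The genes described here are the 3 mouse TGF-beta ligands (Tgfb1, Tgfb2, Tgfb3), their 3 receptors (Tgfbr1, Tgfbr2, Tgfbr3), the signal transducer Smad3 and the Smad corepressor Skil. They were taken by gene symbol, and these 8 genes of the 18193 on the arrays were covered by 20 of 45037 probe sets, short oligonucleotide sets that each read 1 stretch of a transcript. Each gene was represented by its probe set with the highest mean over all arrays, and the others served as a check. The arrays recorded RNA of A2.miR200c cells, an embryonic stem (ES) cell line carrying a doxycycline-inducible cassette for the microRNAs miR-200c and miR-141, grown as embryoid bodies, floating aggregates in which ES cells differentiate. In the induced group, 500 ng/mL doxycycline was added on days 2 and 4 of differentiation, and in the untreated group none was added. RNA was taken on days 3, 4 and 5, with 1 array for each treatment and day, or 6 arrays in all. Both groups were the same line and carried the same cassette. The ES cells had been kept on feeder fibroblasts and passaged once without them before differentiation, and they differentiated in medium with fetal calf serum. A doxycycline-treated line without the cassette was not analysed here, so an effect of doxycycline itself cannot be told apart from that of the microRNAs.

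TGF-beta ligands are secreted in a latent form and must be released before they bind. The free ligand binds the type II receptor, which then phosphorylates the type I receptor, and that kinase phosphorylates Smad3 and its relative Smad2 so that they enter the nucleus with Smad4. The pathway is known for driving the epithelial-to-mesenchymal transition, and the miR-200 family is known for holding cells epithelial, largely through the repressors Zeb1 and Zeb2. Tgfb2 has itself been listed in the literature as a miR-200 target.

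The mature microRNAs are shown because the cassette makes the first pair of them. Their 3p strands were read from RefSeq on GRCm38.p6, with the seed, bases 2 to 8 from the 5′ end, in capitals. The induced pair is encoded at chr6:124718324-124718346 and chr6:124717917-124717938, both on the minus strand, and the other 3 members of the family on chromosome 4.
miR-200c-3p, induced: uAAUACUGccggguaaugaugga
miR-141-3p, induced: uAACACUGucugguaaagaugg
miR-200b-3p, not in the cassette: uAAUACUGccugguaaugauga
miR-429-3p, not in the cassette: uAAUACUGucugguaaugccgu
miR-200a-3p, not in the cassette: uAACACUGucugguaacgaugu
The seeds of the induced pair differ at 1 of 7 bases. The family of 5 falls into 3 microRNAs with the seed of miR-200c and 2 with the seed of miR-141. The arrays do not measure these microRNAs.

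Array medians lay between 34.51 and 36.94 intensity units, and 48.8 to 50.1% of probe sets exceeded the background of 36.7, the 95th percentile of 78 chemoreceptor genes that such cells are not known to use. The label of differentiating ES cells was checked on markers: all 10 epiblast and primitive ectoderm genes exceeded background on at least 1 array, as did all 9 early mesoderm genes on the arrays. This rule does not settle the label, since 9 of 10 feeder fibroblast, 9 of 10 extraembryonic endoderm and 4 of 8 endothelial genes also met it. Hprt, a purine salvage enzyme gene singled out after its values were seen, showed the largest difference of all genes tested on every day, with 1671, 2539 and 2977 units in induced and 233.6, 124.8 and 102.1 units in untreated cells on days 3, 4 and 5. Zeb1 had 132.2, 195.8 and 168.6 units in induced and 131.1, 255.5 and 402.9 units in untreated cells on those days. For Zeb2 the values were 24.75, 32.69 and 55.85 units induced and 43.68, 97.64 and 236.7 units untreated. Zeb2 reached 80.11 units, the level required for testing, only on the untreated arrays of days 4 and 5. Its lower induced values on those days were therefore built in, and its induced values of days 3 and 4 lay below background. Neither Zeb gene passed the test of induction (limma adjusted p = 0.577 and 0.573), and Hprt did not pass it either (adjusted p = 0.573). The smallest adjusted p of any gene in that test was 0.573, so failing it does not show the absence of an effect.

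Of the 8 genes, 7 were tested. A gene was tested if it reached 80.11 units, the median of all gene values, on any array, which 9997 genes did. Tgfbr1, Smad3 and Skil reached that level on all 6 arrays and Tgfbr3 on 5. Tgfb1, Tgfb2 and Tgfbr2 reached it on 4, the arrays of days 4 and 5, so they entered through the days on which they were high. Tgfb3 lay below background on every array and was left out. Differences are given on the scale of log2(intensity + 50), which understates the fold at low intensity, and a fold is 2 to the power of such a difference.

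Tgfb2 (Entrez Gene 21808), a ligand with prominent roles in the developing heart and palate, was the 1 member at least 2-fold apart between the treatments on any day. It had 40.43, 109.2 and 446.4 units in induced cells on days 3, 4 and 5, against 20.10, 286.3 and 1267 units in untreated cells. The level was near or below background on day 3 in both treatments, and on days 4 and 5 the induced value was 38.1% and 35.2% of the untreated one. The log2 difference, induced minus untreated, was 0.37 on day 3, −1.08 on day 4 and −1.41 on day 5, or 2.11-fold and 2.65-fold lower in induced cells on the last pair of days. Among the 9997 genes this difference ranked 43 from the lowest on day 4 and 61 from the lowest on day 5. On day 4, 0.5% of genes were at least 2-fold lower and 0.08% at least 2-fold higher in induced cells (0.58% in all), and on day 5 1.52% were lower and 1.97% higher. On day 3 0.02% were 2-fold apart in either direction. Differences of a single day rest on 1 array of each treatment and carry no test.

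Tested over the 3 days, the mean difference of Tgfb2 was −0.71 ± 0.94 (SD over days, n = 3), smaller than its spread, and it did not pass (limma, SE 0.35, adjusted p = 0.592). Its difference moved by −0.89 per day (SE 0.17), which did not pass either after adjustment over all genes (limma adjusted p = 0.145). Across all 9997 genes the test of induction called 0%, with 842 genes (8.42%) at an unadjusted p under 0.05, and the test of the change per day called 0%, with 1322 genes (13.2%) at an unadjusted p under 0.05. Neither test called any of the 7 members. At the unadjusted level, induction reached 0 members, and the change per day reached Tgfb2 and Skil.

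All 4 probe sets of Tgfb2 were lower in induced cells on days 4 and 5. On day 5 the main set gave 446.4 units induced and 1267 untreated. The other sets gave 293.2, 215.9 and 38.19 units induced, against 1000, 717.4 and 170.4 units untreated. The log2 differences of the 4 sets ran from −1.61 to −1.32 on day 5 and from −1.10 to −0.68 on day 4, while on day 3 they had both signs, between −0.18 and 0.37. Probe sets of a gene read the same arrays and are not replicates.

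**Figure D1:**
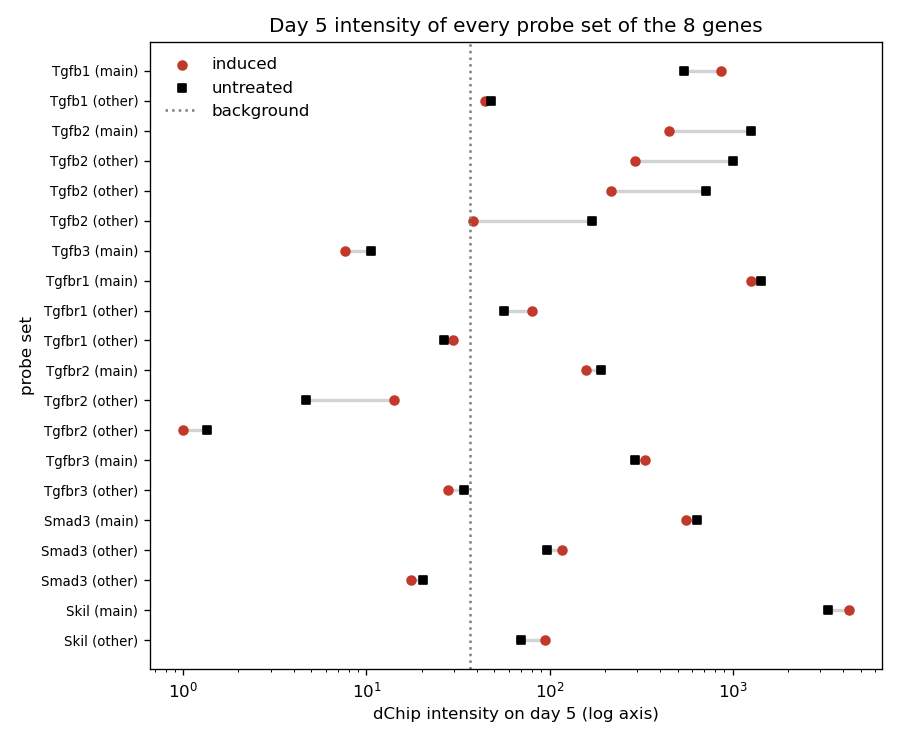
dChip intensity on day 5 (horizontal, log axis) of all 20 probe sets of the 8 genes, with circles for the induced and squares for the untreated array, and a dotted line at the background of 36.7. All 4 Tgfb2 sets lie lower in induced cells, while 5 of the 20 sets stay below background on all 6 arrays.

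Tgfb1 (Entrez Gene 21803), the most widely made ligand of the family, took another course. Induced cells had 79.04, 260.8 and 867.8 units on days 3, 4 and 5, and untreated cells had 60.28, 431.2 and 544.9 units. The induced value was thus below the untreated one on day 4 and above it on day 5. The log2 differences were 0.23, −0.63 and 0.63, that is 1.55-fold below untreated cells on day 4 and 1.54-fold above them on day 5. Their mean of 0.07 ± 0.64 (SD over days, n = 3) was smaller than the spread, and neither induction (limma adjusted p = 0.934) nor the change per day (adjusted p = 0.805) passed. A second Tgfb1 probe set, near background, was 1.04-fold lower in induced cells on day 5, with 44.17 units induced and 48.08 untreated.

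Tgfb3, the third ligand, had 6.75, 3.95 and 7.67 units in induced and 4.53, 5.52 and 10.63 units in untreated cells on days 3, 4 and 5. Its single probe set gave a bound, under 36.7 units on all 6 arrays, and no fold is given.

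**Figure D2:**
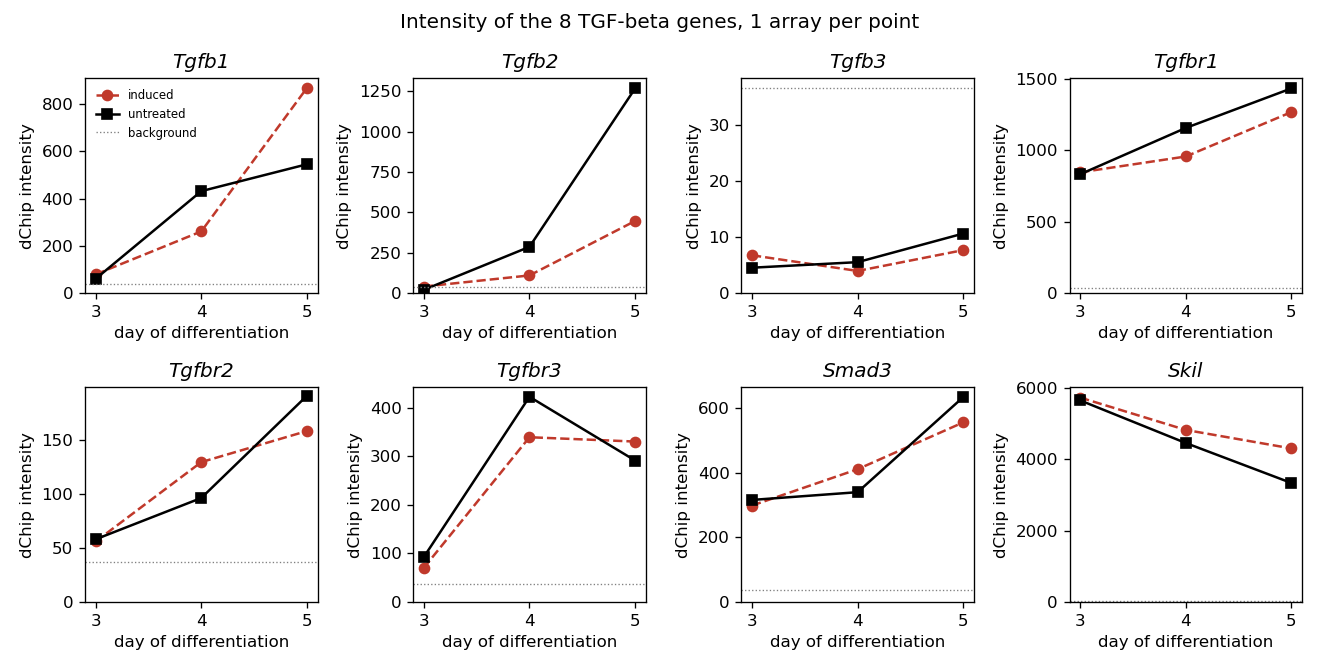
dChip intensity (vertical, linear, 1 scale per gene) of the main probe set of each of the 8 genes by day of differentiation (horizontal, days 3 to 5), with 1 array per point, red circles for induced and black squares for untreated cells and a dotted line at background. Tgfb2 reached 446.4 units in induced and 1267 units in untreated cells on day 5, whereas Tgfbr1, with 1267 units induced and 1433 untreated, lay closer together.

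The promoters of the ligands with a signal are shown, since both rose between days 3 and 5. Each window runs from 250 bases before the transcript start to 50 after it, 5′ to 3′ on the gene's strand, from RefSeq on GRCm38.p6. Capitals mark matches to 4 motifs searched on both strands. The Smad box was read as CAGAC. The E-box of the kind bound by Zeb and Snail proteins was read as CACCTG. A further E-box, bound by basic helix-loop-helix proteins, was read as CACGTG. The TATA box was read as TATAAA. No match in the windows shown overlapped another. The Tgfb2 window lies at chr1:186705940-186706239 on the minus strand and the Tgfb1 window at chr7:25686752-25687051 on the plus strand.
Tgfb2 promoter: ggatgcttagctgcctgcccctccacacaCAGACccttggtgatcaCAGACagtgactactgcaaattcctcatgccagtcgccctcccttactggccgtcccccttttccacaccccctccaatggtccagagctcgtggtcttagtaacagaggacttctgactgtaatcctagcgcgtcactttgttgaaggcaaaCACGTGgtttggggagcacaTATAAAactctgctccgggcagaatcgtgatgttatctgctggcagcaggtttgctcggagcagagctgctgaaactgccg
Tgfb1 promoter: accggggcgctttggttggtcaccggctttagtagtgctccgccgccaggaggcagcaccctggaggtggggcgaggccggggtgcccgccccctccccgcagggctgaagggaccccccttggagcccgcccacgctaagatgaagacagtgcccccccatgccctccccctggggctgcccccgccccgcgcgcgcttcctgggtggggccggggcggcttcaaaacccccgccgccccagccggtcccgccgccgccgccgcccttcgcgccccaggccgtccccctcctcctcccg
The Tgfb2 window held the Smad box at −221 and −204, the further E-box at −51 and the TATA box at −31, counted from the start. The Tgfb1 window held none of the 4. Its GC content was 77%, against 54.3% for Tgfb2 and a median of 52.7% over 32851 promoters of this length. Of those promoters, 49.6% held the Smad box, 20.2% the Zeb and Snail type of E-box, 13.6% the TATA box and 7.15% the further E-box. The Zeb and Snail type was in none of the 6 windows found for 5 of the members. A match of letters is a description and not a binding site.

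The receptors were at most 1.23-fold apart between the treatments on any day. Tgfbr1 (Entrez Gene 21812), the type I receptor kinase also called ALK5, had 845.3, 956.1 and 1267 units in induced cells on days 3, 4 and 5, and 831.5, 1156 and 1433 units in untreated cells. The log2 differences were 0.02, −0.26 and −0.17, with a mean of −0.14 ± 0.15 (SD over days, n = 3; limma adjusted p = 0.621 for induction). The induced value was the lower one on days 4 and 5, by at most 1.20-fold. On day 5 a second, dimmer set was higher in induced cells, with 80.69 units induced and 56.71 untreated.

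Tgfbr2 (Entrez Gene 21813), the type II receptor that binds the ligand first, had 56.14, 129.7 and 158.5 units in induced and 58.17, 96.45 and 191.2 units in untreated cells. The induced array was the higher on day 4 and the lower on days 3 and 5, and the mean log2 difference was 0.02 ± 0.26 (SD over days, n = 3; limma adjusted p = 0.973). Only 1 of its 3 probe sets exceeded background on any array.

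Tgfbr3 (Entrez Gene 21814), or betaglycan, a co-receptor that has no kinase and presents ligand, Tgfb2 above all, to the type II receptor, had 70.39, 339.0 and 330.1 units in induced and 92.58, 422.2 and 291.1 units in untreated cells. In untreated cells the value was highest on day 4, and in induced cells the values of days 4 and 5 were close. The log2 differences of −0.24, −0.28 and 0.16 averaged −0.12 ± 0.24 (SD over days, n = 3; limma adjusted p = 0.747).

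Smad3 (Entrez Gene 17127), the receptor-activated transcription factor of the pathway, had 298.8, 411.3 and 556.3 units in induced and 316.2, 340.2 and 634.7 units in untreated cells. Its log2 differences of −0.07, 0.24 and −0.18 changed sign between days and averaged −0.00 ± 0.22 (SD over days, n = 3; limma adjusted p = 0.997). Its second probe set was 1.14-fold higher in induced cells on day 5, with 117.4 units induced and 97.05 untreated, so the sets differ in direction there. On days 3 and 4 that set was lower in induced cells, by 0.42 and 0.33 on the log2 scale, and on day 4 it again ran against the main set.

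Skil (Entrez Gene 20482), which encodes SnoN, a corepressor that binds Smads and is removed when the pathway is switched on, had 5728, 4821 and 4303 units in induced and 5649, 4455 and 3335 units in untreated cells. It was the 1 member with a difference of the same sign on all 3 days, 0.02, 0.11 and 0.36 on the log2 scale, higher in induced cells. Of all genes, 33.6% had the same sign on all 3 days. The mean of 0.17 ± 0.18 (SD over days, n = 3) did not pass for induction (limma adjusted p = 0.573), nor did the change of 0.17 per day (SE 0.04, adjusted p = 0.208). The second Skil set was higher in induced cells on day 5, with 93.88 units induced and 69.60 untreated, but lower on day 4, by 0.13 on the log2 scale. With the mean over both sets the differences were −0.00375, −0.00932 and 0.31, so the shared sign was lost.

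**Figure D3:**
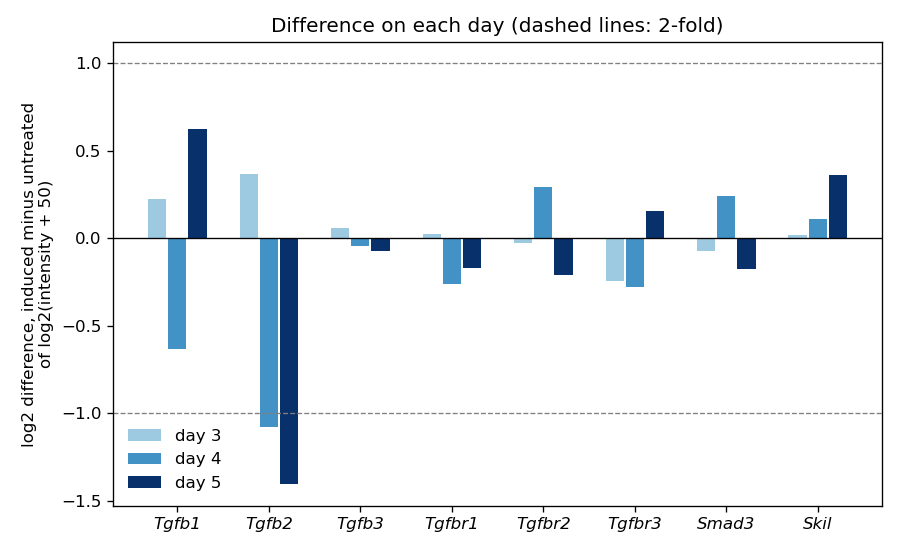
Log2 difference, induced minus untreated, of log2(intensity + 50) (vertical) for each of the 8 genes on days 3, 4 and 5 (light to dark bars), 1 array per treatment and day and no error bars, with dashed lines at 2-fold. Tgfb2 alone passes a dashed line, at −1.08 on day 4 and −1.41 on day 5, and the bars of Tgfb3 come from values below background.

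The median difference of the 7 tested members was 0.02 on day 3, −0.26 on day 4 and −0.17 on day 5, beside 0.00, 0.02 and 0.02 over all genes tested. Of the 7, 4 were lower in induced cells on day 4 and 4 on day 5, against 4593 and 4673 of the 9997 genes.

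All 7 tested members changed with time. Between days 3 and 5, with both treatments in the fit, 6 members rose and 1 fell (limma adjusted p under 0.05), where 39.9% of all genes changed, 20.6% up and 19.2% down. Since Tgfb1, Tgfb2 and Tgfbr2 passed the filter only through days 4 and 5, this count is a description. Tgfb2 rose by 3.34 on the log2 scale (SE 0.43, adjusted p = 0.00558), with 1 of its day 3 values below background, and Tgfb1 by 2.63 (SE 0.30, adjusted p = 0.00434). Tgfbr3 rose by 1.46 (adjusted p = 0.00317), Tgfbr2 by 1.07 (adjusted p = 0.0073), Smad3 by 0.85 (adjusted p = 0.00814) and Tgfbr1 by 0.65 (adjusted p = 0.00778). Skil fell by 0.58 (adjusted p = 0.00814). In cultures of this kind, more cells that express a gene and more RNA of it per cell cannot be told apart.

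Taken in each treatment alone, the change of Tgfb2 between days 3 and 5 was 2.46 in induced and 4.23 in untreated cells on the log2 scale. The untreated day 3 value lay below background, so that change has only a bound, at least 3.93 with day 3 set at the background of 36.7 units. The change of Tgfb1 was 2.83 in induced and 2.43 in untreated cells, ranking 51 and 112 from the highest in those groups. For the remaining members that rose, the changes were 0.56 induced and 0.75 untreated for Tgfbr1, 0.97 and 1.16 for Tgfbr2, 1.66 and 1.26 for Tgfbr3, and 0.80 and 0.90 for Smad3. Skil changed by −0.41 in induced and −0.75 in untreated cells. The change was thus smaller in induced cells for 5 members, Tgfb2, Tgfbr1, Tgfbr2, Smad3 and Skil, and larger for Tgfb1 and Tgfbr3. With the mean over probe sets it was larger in induced cells for Tgfbr1 (0.42 induced and 0.33 untreated), Tgfbr2 (0.37 and 0.26) and Smad3 (0.51 and 0.33) too. At least 2-fold higher on day 5 were 3 members in induced cells, beside 4.67% of all genes, and 4 in untreated cells, beside 5.93%. These changes rest on 2 arrays each and carry no test, and the test of the change of effect per day, which bears on the difference between them, called none of the members.

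**Figure D4:**
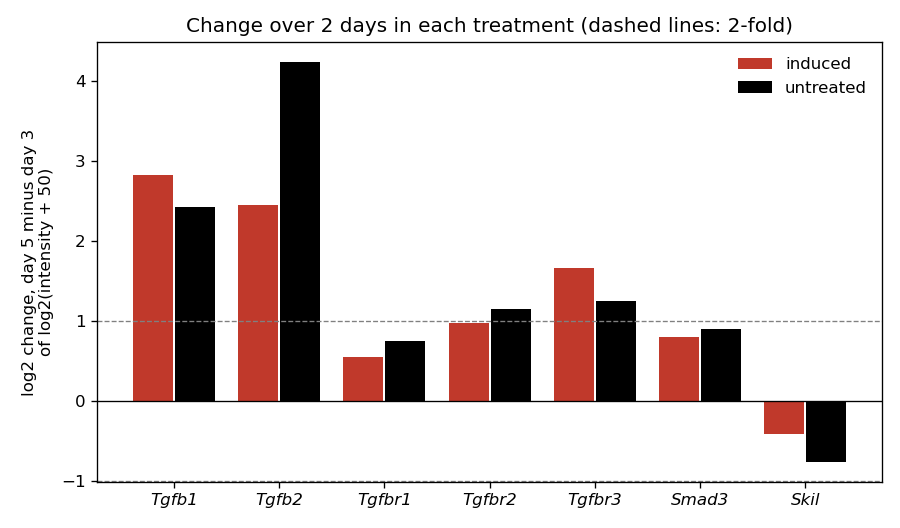
Change between days 3 and 5 on the scale of log2(intensity + 50) (vertical) in induced (red) and untreated (black) cells for the 7 tested genes, each bar the difference of 2 arrays, with dashed lines at 2-fold. Tgfb2 stands at 2.46 in induced and 4.23 in untreated cells, where the day 3 value was below background, and Skil has the 1 pair of bars below 0.

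Pearson's r over the 6 arrays was positive between all members but Skil, from 0.575 between Tgfbr3 and Smad3 to 0.992 between Tgfb2 and Tgfbr1, with 0.881 between Tgfb2 and Tgfb1 and 0.702 between Tgfb2 and Tgfbr3. Skil ran opposite to each of the others, from −0.983 with Tgfb2 to −0.703 with Tgfbr3. The arrays share the time course, so these values describe it and carry no test. Among 1564 or 1565 genes with a log2 range of at least 1, the patterns most like Tgfb2 were those of Rbm24 (r = 0.999), Bmi1 (r = 0.998) and Prkd1 (r = 0.998). For Tgfb1 they were Ablim1 (r = 0.995), Prex1 (r = 0.994) and Tmem198b (r = 0.993). For Tgfbr3 they were the primitive streak genes Mixl1 (r = 0.991) and Eomes (r = 0.988), and Wnt5b (r = 0.986). Tgfbr1 was most like Slc5a3, Wnt5a and Prtg, Tgfbr2 most like Pbx2, Tbc1d9b and Mfhas1, Smad3 most like Ccnd3, Col4a2 and Smim10l1, and Skil most like Fat1, Frrs1 and Zbtb44.

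Some markers of other cells also differed between the treatments, though not in every list. The 9 early mesoderm genes on the arrays summed to between 2980 and 15370 units in induced and between 2750 and 15910 units in untreated cells. On day 4 their median difference over the 8 tested was −1.04, and 4 of them, Mesp1, Kdr, Pdgfra and Aplnr, were at least 2-fold lower in induced cells. On day 5 the median was −0.46, with 6 lower and 2 higher in induced cells, the latter being Mixl1 at 0.96 and Lefty2 at 1.235. The 10 epiblast and primitive ectoderm genes summed to 24390 units in induced and 8816 units in untreated cells on day 5, with 8 of them at least 2-fold higher in induced cells. The 10 feeder fibroblast genes summed to between 546.8 and 922.3 units in induced and between 512.4 and 2304 units in untreated cells, with 9 above background on some array and Lum on none. On day 5 the median over the 4 tested was −1.17, with Pdgfrb at −2.14 and Twist2 at −1.51. Twist2 and Postn reached the filter only on the untreated array of day 5, so their lower induced values there were built in. The 8 endothelial genes summed to between 186.4 and 275.8 units induced and between 211.3 and 544.7 untreated, and Pecam1, Tie1, Emcn and Sox18 lay below background on all arrays. On day 5 both tested, Cdh5 and Esam, were lower in induced cells, with a median of −1.06. Both reached the filter only on the untreated array of day 5, so this direction was set by the filter. The 10 extraembryonic endoderm genes summed to between 3352 and 6305 units induced and between 3540 and 5892 untreated, with Afp below background throughout. On day 5 the median over the 8 tested was 0.14, with 5 higher and 3 lower in induced cells. Sox7 was at −1.90 on day 5 and Gata6 at −1.065 on day 4. The 7 trophoblast genes on the arrays summed to between 735.4 and 3813 units induced and between 1017 and 4121 untreated, with Elf5 below background throughout. On day 5 the median over the 5 tested was −1.70, and Plac1, Hand1 and Cdx2 were at least 2-fold lower in induced cells. Plac1 reached the filter only on the untreated array of day 5, and Cdx2 only on those of days 4 and 5. Their lower induced values on those days were therefore built in. Eomes, at 3364 units induced and 2141 untreated on day 5, made up most of the sum. The part of such cells in the differences of Tgfb2 and the other members was not tested.

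The wider pathway was read through 5 lists of 52 other genes, of which 47 were on the arrays and 41 were tested. With time 13 rose and 6 fell (limma adjusted p under 0.05, beside 20.6% and 19.2% of all genes). Induction and the change per day called 0 of them, as they called 0% of all genes. Their median difference on day 5 was 0.03, with 24 higher and 17 lower in induced cells. At least 2-fold apart on day 5 were Pmepa1, higher in induced cells beside 1.97% of all genes, and Bambi and Tgfbi, lower beside 1.52%. Tgfbi reached the filter on the untreated array of day 5 alone, so its direction on that day was set by the filter.

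The genes that store and release ligand were higher in induced cells on all 3 days for 6 of 6 tested, without passing the test. Some of these differences were close to 0, and the count was 5 with median centring, without Ltbp3, 4 with quantile normalization, without Ltbp3 and Itgav, and 4 with the mean over probe sets, without Ltbp1 and Itgav. Ltbp3 reached the filter only on the induced arrays of days 4 and 5, so a higher induced value on those days was built in. Of all genes, 19.3% were higher on all 3 days. Ltbp4, which binds latent ligand in the matrix, had 652.5, 304.2 and 157.1 units in induced and 597.2, 222.9 and 63.18 units in untreated cells on days 3, 4 and 5, and it fell with time by 2.14 on the log2 scale (limma adjusted p = 0.00278). Thbs1, a matrix protein known to activate latent ligand, had 100.7, 125.3 and 143.2 units in induced and 85.28, 68.42 and 56.36 units in untreated cells (adjusted p for induction = 0.573). Itgb8, an integrin chain that activates ligand together with Itgav, was 1.56-fold higher in induced cells on day 5, and Itgav, at 1574 units induced and 1572 untreated on that day, rose with time by 0.58 (adjusted p = 0.00491). Ltbp1 was 1.11-fold higher on day 5.

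Among the partners of the receptors, Bambi, a pseudoreceptor without a kinase, had 218.8, 302.7 and 1160 units in induced and 217.9, 502.1 and 2399 units in untreated cells. It was 2.02-fold lower in induced cells on day 5 and rose with time by 2.68 on the log2 scale (limma adjusted p = 0.00285). Fkbp1a, which binds type I receptors and keeps them quiet, rose with time by 0.15 (adjusted p = 0.047). Zfyve9, the adaptor SARA, was higher in induced cells by 0.18 ± 0.04 on the log2 scale (SD over days, n = 3; adjusted p = 0.573), and Tgfbrap1 had a mean difference of −0.08.

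Of 8 tested Smads and Smad ligases, Smad4, the common partner, rose with time by 0.48 (limma adjusted p = 0.004) and Smurf2, a ubiquitin ligase, by 0.25 (adjusted p = 0.0461). Nedd4l, another ubiquitin ligase, fell by 0.38 (adjusted p = 0.0498), and was 1.18-fold, 1.23-fold and 1.45-fold higher in induced cells on days 3, 4 and 5. Smad7, the inhibitory Smad that the pathway itself turns on, had 2205, 1574 and 1075 units in induced and 2313, 1400 and 1813 units in untreated cells. The induced array was the lower by 1.66-fold on day 5. Smad2 was 1.34-fold lower there, with 453.8 units induced and 626.8 untreated.

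Among 7 tested nuclear partners and brakes, the corepressor Tgif1 had 2302 units in induced and 1128 units in untreated cells on day 5, and Pmepa1, a membrane protein that sequesters Smads, had 380.7 and 143.8 units, 2.22-fold higher in induced cells. On days 3 and 4 the differences of both were under 1.20-fold. With time Foxh1, a Smad partner in Nodal signalling, rose by 0.68 (limma adjusted p = 0.00791). The corepressor Ski, a relative of Skil, fell by 0.61 (adjusted p = 0.011) and the transcription factor Sp1 fell by 0.21 (adjusted p = 0.0181). The coactivator Ep300 was 1.06-fold higher in induced cells on day 5.

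Response genes, known to be turned on by TGF-beta in other cells, went both ways, and 3 of them (Smad7, Pmepa1, Thbs1) stand in other lists too. Of 17 tested, 9 were higher and 8 lower in induced cells on day 5. Tgfbi, a matrix protein named for its response to TGF-beta, had 23.94, 20.84 and 45.02 units in induced and 23.30, 30.00 and 289.9 units in untreated cells. It was 3.58-fold lower in induced cells on day 5, and it was tested only through its untreated value of that day. Acta2, smooth muscle actin, had 314.2, 519.7 and 655.4 units in induced and 325.8, 427.4 and 1262 units in untreated cells. The induced array was the higher on day 4 and the lower on day 5. Fn1, fibronectin, had 1228, 2526 and 9313 units in induced and 1156, 5750 and 9826 units in untreated cells, 2.25-fold lower in induced cells on day 4 alone. Tgfb1i1, a focal adhesion protein, was 1.76-fold lower on day 4, with 202.8 units induced and 395.6 untreated.

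The secreted proteins Ccn2 and Ccn1 (Ctgf and Cyr61) stood on the other side. Ccn2 had 2907, 3073 and 2223 units in induced and 2655, 1891 and 1091 units in untreated cells, 1.99-fold higher in induced cells on day 5, and Ccn1 was 1.75-fold higher there. The transcription factor Bhlhe40 was 1.63-fold higher in induced cells on day 5, and the actin-binding protein Tagln was higher by 0.34 ± 0.12 (SD over days, n = 3; limma adjusted p = 0.573 for induction). With time 7 of the 17 rose, namely Fn1, Tgfb1i1, Acta2, Tagln, Cdkn1a, Ccn1 and Col1a2, beside 20.6% of all genes. Ccn2 and Bhlhe40 fell, beside 19.2% of all genes. Fn1 rose by 2.95 (adjusted p = 0.00364) and Tgfb1i1 by 2.36 (adjusted p = 0.00232).

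**Figure D5:**
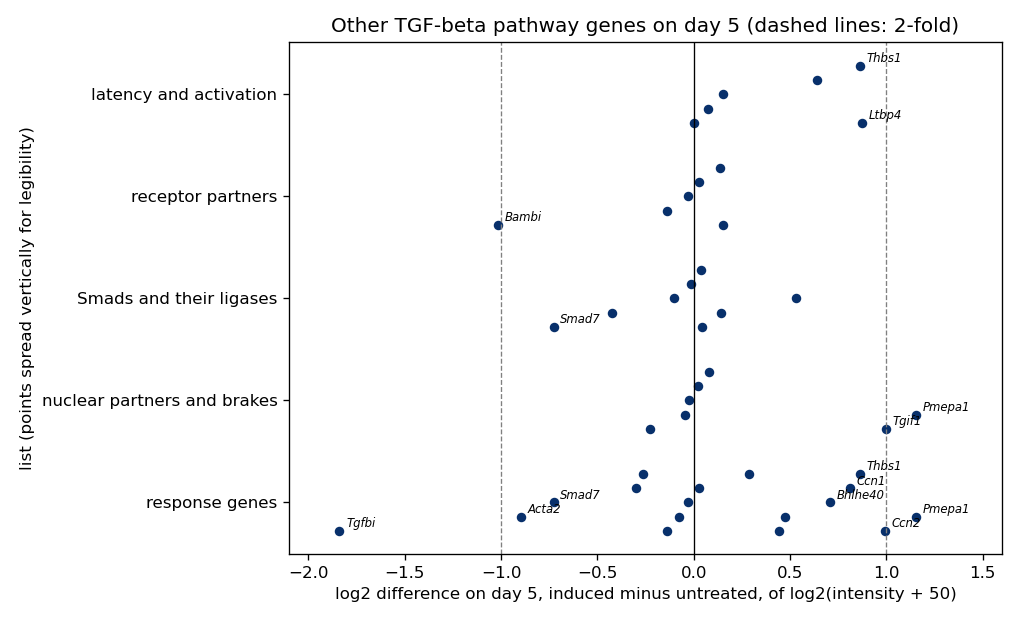
Log2 difference on day 5, induced minus untreated, of log2(intensity + 50) (horizontal) for the tested genes of the 5 pathway lists, 1 point per gene and list, spread vertically for legibility, with dashed lines at 2-fold. Thbs1 and Ltbp4, at 0.86 and 0.87, lie farthest right among the genes of latency and activation, and Tgfbi, 3.58-fold lower in induced cells, lies farthest left. Tgfbi was tested only through its untreated value of day 5.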

How the data were processed

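RNA of 6 samples was hybridised to Affymetrix MOE430 2.0 arrays. The sample titles do not say whether the days came from separate cultures. The authors normalised and modelled the arrays in DNA-Chip Analyzer (dChip), and the deposited values are model-based intensity values on a linear scale, 1 per probe set, with no detection calls or error. The number of arrays limits the precision. Of 45037 probe sets, 34945 had 1 gene symbol on the platform annotation, 932 had several and 9160 had none. Probe sets of several symbols or none were not used.

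Values were analysed as log2(intensity + 50) in R 4.3.3 with limma 3.58.1 (lmFit, and eBayes with an intensity trend). Tests were two-sided with Benjamini-Hochberg adjustment at 0.05 over 9997 genes. Induction was tested with day as a block (2 residual and 3.05 prior degrees of freedom), day 5 minus day 3 in the same fit, and how the effect of induction moved per day with treatment by linear day (1 residual degree of freedom). With 1 array per treatment and day, the p-values measure the spread of daily differences and not replicate error, and differences within a day were counted at 2-fold with no test. The fits were checked on simulated data.

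The members and gene lists were chosen with earlier results of these data known. Named besides the members are, from each pathway list, any gene past a limma threshold and up to 4 with the largest mean difference, and the 3 genes most correlated with each member. Entries of the lists with no matching symbol were not analysed here. Alternatives were other pseudocounts (20 and 100), no filter, quantile normalization, median centring, the mean over probe sets, the other probe sets singly, no intensity trend, leaving out each day, and treatment by linear day in the induction fit.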

Additional observations from a re-analysis of the deposited data

Results flagged for a closer look

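Tgfb1 differed between the treatments in opposite directions on different days, with a log2 difference, induced minus untreated, of −0.63 on day 4 and 0.63 on day 5. Each value rests on 1 array per treatment and the difference between the days was not tested. Opposite differences of at least 1.5-fold on any 2 days were found for 18 of 9997 genes (0.18%), and 15 (0.15%) were lower on day 4 and higher on day 5 in induced cells. This rule was chosen after the values were seen.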

How the results depend on the processing

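No day has a replicate, which limits every value here. Of the repeats of the members' tests under the alternatives, 171 kept direction and side of the threshold and 11 turned sign, and no call was gained or lost. Of the members' values without a test, 238 stayed within the spread of the fit, 58 moved beyond it and 4 turned sign. A turn of sign was counted only for values of at least 1 in size. Smaller values that changed sign stand among those that stayed or moved. On another probe set, for example, Tgfb1 on day 5 went from 0.63 to −0.06, and Tgfb2 on day 3 from 0.37 to −0.18. All day 5 minus day 3 calls of the 7 members held (adjusted p between 0.00257 and 0.0263), and no member passed for induction or the change per day. With the mean over probe sets that change was smaller, 1.53 for Tgfb1, 0.64 for Tgfbr3, 0.42 for Smad3, 0.37 for Tgfbr1 and 0.31 for Tgfbr2. For induction of Tgfb2 the lowest adjusted p was 0.0799, with treatment by linear day in the fit. Its mean difference was −1.24 without day 3, −0.52 without day 4 and −0.36 without day 5. On day 4 Tgfb2 was under 2-fold with a pseudocount of 100 (−0.88) or the mean over its probe sets (−0.96). The test results that turned sign were not called. For induction, Tgfb1 became −0.0332 with the mean over probe sets, −0.00253 without day 3 and −0.20 without day 5. Tgfbr2 became −0.0106 with quantile normalization, −0.0297 with the mean over probe sets and −0.12 without day 4, and Smad3 became 0.0331 without day 3 and 0.0857 without day 5. For the change per day, the mean over probe sets gave 0.0491 for Tgfbr1, 0.0569 for Tgfbr2 and 0.0901 for Smad3. On other probe sets the change between days 3 and 5 was −0.17 induced and −0.17 untreated for Tgfbr3, and −0.31 and −0.0777 untreated for Tgfbr2, whose 2 other sets were below background.

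Over all genes, the calls for induction numbered 2 without day 5 (1 higher and 1 lower in induced cells) and 145 with treatment by linear day (103 higher, 42 lower), against 0. The calls for day 5 minus day 3 numbered 2454 without day 4, against 3984, and those for the change per day 11 with a pseudocount of 100, against 0. At 2-fold on day 3 there were 4 genes with a pseudocount of 20, 1 with a pseudocount of 100 and 1 with the mean over probe sets, against 2. That mean gave 34 genes on day 4 against 58, 229 on day 5 against 349, 502 for the induced change between days 3 and 5 against 774, and 718 for the untreated change against 1079. The causes were not tested.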

Other observations

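Of the 15 genes that were lower in induced cells on day 4 and higher on day 5, Tgfb1 among them, a few are named here after their values were seen. Cer1, a secreted Nodal inhibitor, had log2 differences, induced minus untreated, of −1.81 on day 4 and 2.12 on day 5. Mixl1, a homeobox gene of the streak, had −0.71 and 0.96, and Lhx1, another homeobox gene, had −1.39 and 0.91. The Notch ligand genes Jag1 and Dll3 had −0.73 and 1.33, and −1.26 and 0.66, on those days. The mesoderm genes Mesp1 (−1.59 and −0.10), Kdr (−2.25 and −0.82), Pdgfra (−1.36 and −0.88) and Aplnr (−1.54 and −0.06) were not higher on day 5. They are the 4 early mesoderm genes at least 2-fold lower on day 4. Of the 8 tested in that list, 2 were higher in induced cells on day 5, Mixl1 and Lefty2 (1.235 on day 5). None of these values carries a test.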
